A study of Rattus norvegicus with 30 samples.

Results

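A set of 10 regulators of Schwann cell identity and repair was followed in the rat sciatic nerve and dorsal root ganglia after nerve transection: the transcription factors Egr2, Sox10, Pou3f1, Sox2, Pax3, Id2 and Olig1, the Egr cofactors Nab1 and Nab2, and the secreted ligand Shh. The members were taken by name, as every probe whose gene name in the scanner files was 1 of these 10. That gave 13 of the 41012 non-control probes of a 1-colour Agilent rat array, with 3 probes for Id2, 2 for Pax3 and 1 for each other gene. Of these, 12 were tested in each tissue, having passed the scanner's test for a signal well above background on all arrays of some day, and the second Pax3 probe was not.

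The samples were proximal sciatic nerve (SN) and L4-6 dorsal root ganglia (DRG) of adult male Sprague-Dawley rats, taken at 0, 1, 4, 7 and 14 d after a 1 cm piece of the left sciatic nerve had been cut out, with 3 arrays per tissue and day and 30 arrays in all. All rats had the same strain and sex, and the 0 d tissue was the control. The labels give 30 rats in 5 groups of 6 and the methods call the 3 arrays of a group biological replicates, but how many rats went into an array was not given, so the errors measure the spread between arrays. The number of arrays, 3 per group, limits the precision of every value.

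Schwann cells wrap and myelinate peripheral axons. Sox10 keeps them in the glial lineage at every stage, Pou3f1 (Oct6) carries them towards myelination, and Egr2 (Krox20), together with its cofactors Nab1 and Nab2, switches on and maintains the myelin genes. Sox2, Pax3 and Id2 belong to the immature state before myelination and oppose it, and after a nerve injury the cells leave the myelinating state and take up a repair state in which Olig1 and Shh are among the genes known to be expressed. In a bulk tissue, fewer cells of a type and less RNA per cell cannot be told apart.

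Every value below is a normalized signal, the log2 of a probe's processed signal minus the 75th percentile of its own array, so that 0 is the level of that percentile, or a difference of such values (log2 change). A gene was called upregulated or downregulated where limma gave a Benjamini-Hochberg adjusted p under 0.05 over all tested probes and the change was over 2-fold. Adjusted p-values are from limma throughout. The comparisons with 0 d share the same 0 d arrays. These had fewer probes well above background than the later arrays. In SN the numbers were 30227 to 31317 at 0 d and 33079 to 35165 later, and in DRG 26941 to 32602 and 33690 to 35573. The part of this in the calls against 0 d was not tested. The 30 arrays lay on 8 slides scanned on 3 days, and all 0 d arrays lay on slides and in a scan of their own, so that within a tissue the time after transection and the slide cannot be told apart in any comparison with 0 d. No slide joined arrays of 1 or 4 d with arrays of 7 or 14 d, so the same holds for 7 d against 4 d. The comparison of the nerve with the ganglia could be made with the slide as a term, because 5 slides held both tissues of the same day. Pearson r between replicate arrays was 0.985 to 0.997.

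In the nerve, 4 members were upregulated and 1 was downregulated over the 14 d. Shh was upregulated at every day, Sox2 from 4 d, Pou3f1 from 7 d and Pax3 at 1 and 14 d, while Olig1 was downregulated at every day. Of the 12 tested member probes, 3, 3, 4 and 5 were called at 1, 4, 7 and 14 d. Over all 35163 probes tested in SN, the shares called were 22.1%, 22.7%, 24.9% and 19.8%, so the share of members called was close to that of all probes at 1 and 4 d and above it at 14 d. By direction, 2, 2, 3 and 4 member probes were upregulated, beside 18.6%, 15.9%, 18.1% and 14.3% of all probes, and 1 was downregulated at each day, beside 3.43%, 6.78%, 6.81% and 5.46%. At any fold, 7, 8, 7 and 7 member probes had an adjusted p under 0.05, beside 61.6%, 61.1%, 62.4% and 56.1% of all probes. On each day, 8 member probes had no overlap between the arrays of that day and those of 0 d. Over all tested probes this share was 67.5%, 64.1%, 69.1% and 58.1%, so such a separation was common. The median change of all tested probes was 0.11, 0.15, 0.15 and 0.16.

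In the ganglia, 1 of the 12 tested member probes was called at each of 1, 4, 7 and 14 d, beside 7.6%, 6.54%, 6.91% and 13.5% of the 34977 tested probes. It was Pax3 at 1 d and Olig1 at 4, 7 and 14 d, both upregulated, a share of the members near that of all probes. The arrays of a day did not overlap with those of 0 d for 3, 2, 6 and 6 member probes. Over all tested ganglion probes this share was 38.1%, 43%, 47.1% and 51.9%. The median change of all tested ganglion probes was 0.09, 0.14, 0.08 and 0.13.

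**Figure D1:**
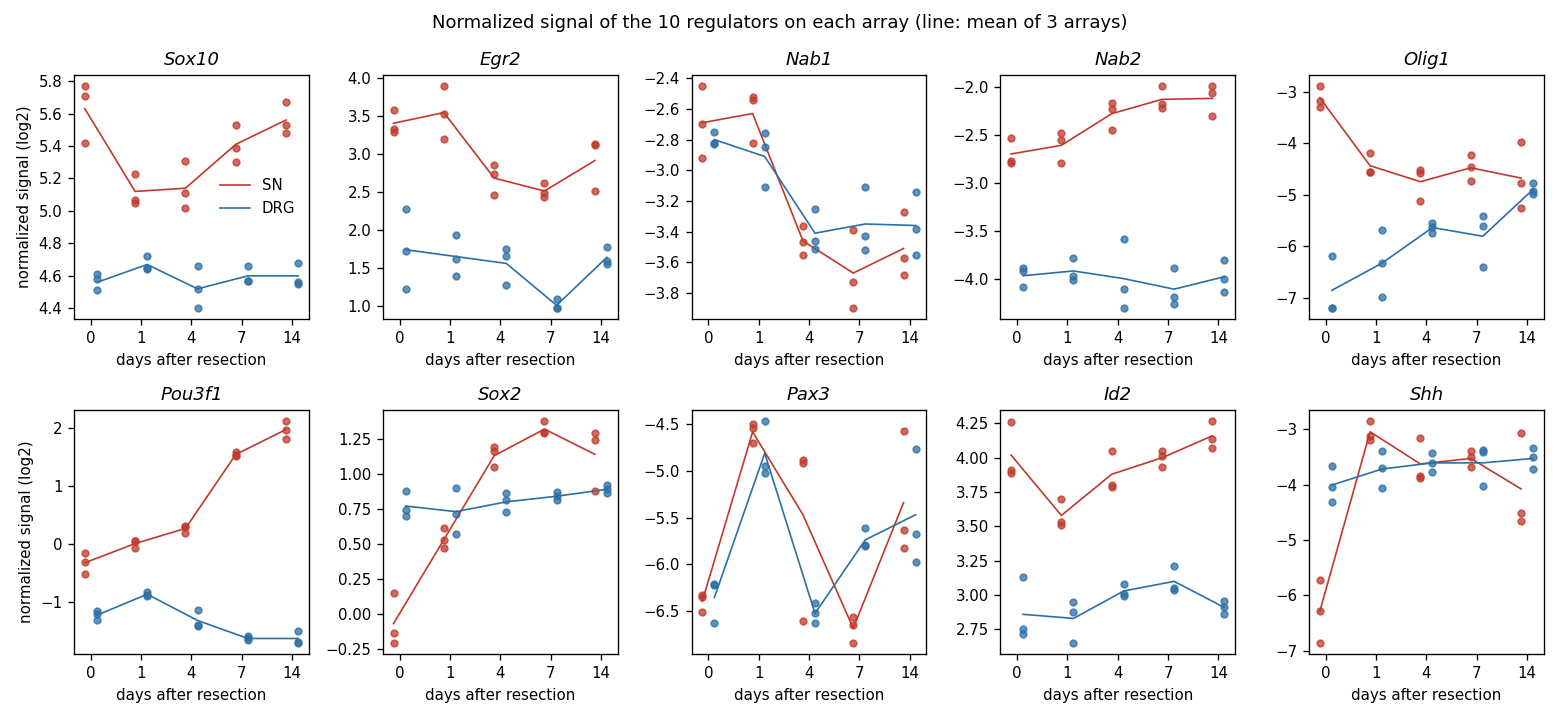
Normalized signal (log2, y axis) of each member's brightest probe against days after transection (x axis, 0 to 14 d). Each point is 1 array, red for SN and blue for DRG, and the lines join the means of 3 arrays. In SN, Pou3f1 rose from a mean of −0.32 to 1.97 and Sox2 from −0.07 to 1.14 at 14 d, while in DRG Sox2 stayed between means of 0.73 and 0.89.

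Egr2 is the zinc finger factor that switches on the myelin programme. Its probe (NM_053633) lies at chr20:21883940-21883999 on the minus strand of rn4. In SN it read 3.58, 3.33 and 3.28 at 0 d and 3.19, 3.52 and 3.89 at 1 d, followed by 2.73, 2.85 and 2.46 at 4 d, then 2.62, 2.43 and 2.49 at 7 d, and 2.51, 3.13 and 3.11 at 14 d. The 0 and 1 d arrays overlapped, and every array from 4 to 14 d lay below every 0 d array. The log2 changes were 0.14, −0.71, −0.88 and −0.48 (SE 0.2, n = 3 per group), with limma adjusted p of 0.555, 0.00716, 0.0019 and 0.0527. Egr2 was thus lower at 4 and 7 d by an amount that passed the adjusted p but stayed under 2-fold, and at 14 d it passed neither. The 4 d level relative to that of 1 d was −0.85 (limma adjusted p = 0.00549), and it was over 2-fold without the first 1 d array (−1.02).

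In the ganglia Egr2 was lower than in the nerve on every day, with means of 1.74, 1.65, 1.56, 1.01 and 1.64 in time order. The 3 arrays at 0 d were 2.28, 1.72 and 1.22, a wider spread than at any later day. The only ganglion day with an adjusted p under 0.05 was 7 d, where the change was −0.73 (limma adjusted p = 0.0357) and the arrays read 0.97, 0.98 and 1.09, all below those of 0 d.

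Nab1 binds Egr proteins and acts with Egr2 in myelination. Its level in SN was −2.7, −2.92 and −2.45 at 0 d, then −2.82, −2.52 and −2.54 at 1 d, −3.55, −3.36 and −3.47 at 4 d, followed by −3.73, −3.9 and −3.39 at 7 d and −3.57, −3.27 and −3.68 at 14 d. As for Egr2, the first 2 days overlapped and all 9 later arrays were below all 0 d arrays. The changes were 0.06, −0.77, −0.98 and −0.82 (SE 0.16; limma adjusted p = 0.753, 0.00119, 0.000202 and 0.000972), which are 1.71-fold, 1.98-fold and 1.76-fold lower at 4, 7 and 14 d. The 7 d value lies just inside 2-fold: after quantile normalization it was −1.19 and the 14 d value −1.02, both called, and without the second 0 d array or the third 7 d array the 7 d value was also called (down to −1.12).

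In the ganglia Nab1 was lower from 4 d as well. The DRG arrays read −2.83, −2.75 and −2.82 at 0 d and −2.76, −3.11 and −2.85 at 1 d, and from 4 to 14 d they lay between −3.55 and −3.11. Changes of −0.61, −0.55 and −0.55 at 4, 7 and 14 d had limma adjusted p of 0.00669, 0.0124 and 0.00719, under 2-fold each time.

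Across the 15 SN arrays, Egr2 and Nab1 had a Pearson r of 0.85, the highest of the 45 member pairs in the nerve, and across the 15 DRG arrays it was 0.33. This describes arrays that share slides and days. Because their levels went together in the nerve, their promoters are shown: the 250 bases before the RefSeq start on GRCr8, 5′ to 3′ on the gene's strand. Egr2 is at chr20:21054442-21054691 on the minus strand and Nab1 at chr9:56545392-56545641 on the plus strand. Capitals mark the motifs found, an octamer (ATGCAAAT, the site of POU factors) and a CArG box in Egr2 and 3 EGR sites (GCGNGGGCG) in Nab1.
Egr2: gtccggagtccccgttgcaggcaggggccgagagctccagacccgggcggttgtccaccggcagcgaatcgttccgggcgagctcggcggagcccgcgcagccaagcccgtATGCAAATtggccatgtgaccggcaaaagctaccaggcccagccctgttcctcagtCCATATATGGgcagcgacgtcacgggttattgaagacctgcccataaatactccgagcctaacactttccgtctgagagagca
Nab1: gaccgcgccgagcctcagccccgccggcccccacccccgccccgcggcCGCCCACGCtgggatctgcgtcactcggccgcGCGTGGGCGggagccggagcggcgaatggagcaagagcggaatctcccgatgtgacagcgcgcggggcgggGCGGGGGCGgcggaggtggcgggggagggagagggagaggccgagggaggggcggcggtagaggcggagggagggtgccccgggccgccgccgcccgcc

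The octamer starts 139 bases and the CArG box 83 bases before the Egr2 start, and the EGR sites of Nab1 start 202, 170 and 99 bases before its start. The search covered both strands. An EGR site was present in 4.29% of 33469 rat promoters of this length, the octamer in 1.56% and a CArG box in 1.5%. The Nab1 window is 81.2% G and C, and that of Egr2 62%. The SOX sites ACAAAG and ACAATG (16.3% and 11.1% of promoters) and the GLI site GACCACCCA (0.338%) were not found in these 250 bases of Egr2, Nab1, Nab2, Sox2, Pax3 or Id2, the 6 members with an entry. A match is a run of letters and not evidence of binding.

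Nab2, the second Egr cofactor, was higher and not lower from 4 d in the nerve. It read −2.77, −2.79 and −2.53 at 0 d, then −2.55, −2.48 and −2.79 at 1 d, −2.45, −2.23 and −2.17 at 4 d, followed by −2.18, −2.22 and −1.99 at 7 d and −1.99, −2.06 and −2.3 at 14 d. From 4 d on, all arrays were above all 0 d arrays. The changes of 0.41, 0.57 and 0.58 (SE 0.12; limma adjusted p = 0.0106, 0.0015 and 0.0016) were under 2-fold, and after quantile normalization the 4 d value was 0.27 with an adjusted p of 0.111. In the ganglia the Nab2 means stayed between −4.11 and −3.92. Nab2 had an r of −0.82 with Egr2 and −0.72 with Nab1 over the 15 SN arrays.

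The Nab probes both lie in coding sequence, which is shown because the cofactors had differences from 0 d of opposite sign. The Nab1 probe spans an intron. On rn4 they are at chr9:46104881-46113704 on the plus strand (Nab1) and chr7:67646690-67646749 on the minus strand (Nab2).
Nab1 probe: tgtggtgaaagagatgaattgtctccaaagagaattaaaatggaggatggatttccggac
Nab2 probe: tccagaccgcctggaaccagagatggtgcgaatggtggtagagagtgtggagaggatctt

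Sox10, the lineage factor of all peripheral glia, has its probe (NM_019193) at chr7:117138840-117138899 on the minus strand. It read 5.42, 5.77 and 5.71 in SN at 0 d, then 5.07, 5.23 and 5.05 at 1 d, 5.31, 5.11 and 5.02 at 4 d, followed by 5.53, 5.3 and 5.39 at 7 d and 5.48, 5.67 and 5.53 at 14 d. The 1 and 4 d arrays all lay below the 0 d arrays, and those of 7 and 14 d overlapped with them. The changes were −0.51 and −0.49 at 1 and 4 d (SE 0.11; limma adjusted p = 0.00167 and 0.00237) and −0.22 and −0.07 at 7 and 14 d (0.0987 and 0.615). After quantile normalization they were −0.32, −0.33, −0.04 and 0.16. In the ganglia Sox10 means were between 4.52 and 4.67 on the 5 days.

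Both Egr2 and Sox10 act on the myelin genes, and 10 of these were taken from a list of their known targets. In SN, 2, 8, 8 and 7 of the 10 were downregulated at 1, 4, 7 and 14 d, with median changes of −0.61, −1.56, −1.82 and −1.38. Mal, a proteolipid of compact myelin, fell by 1.24, 2.05, 2.49 and 2.13. Fa2h, which hydroxylates the fatty acids of myelin lipids, fell by 2.59, 2.41 and 2.43 at 4, 7 and 14 d and Gjb1 (connexin 32) by 1.83, 1.94 and 1.9. The tight junction gene Cldn19 fell by 1.77, 1.68 and 1.32 on these days. In DRG, limma called at most 1 of the 10 downregulated on a day, and the medians were −0.22, −0.44, −0.46 and −0.4.

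Of 5 Schwann cell markers (S100b, Erbb3, Cdh19, Foxd3 and Cryab), 1, 2, 1 and 2 were downregulated in SN, and 1 was upregulated at 7 and 14 d. Their mean signal per array was 0.05 to 0.38 at 0 d, −0.45 to −0.11 at 4 d and −0.32 to 0.11 at 14 d, and all 5 were well above background on every SN array. Macrophage markers moved the other way, with array means of 0.4 to 0.68 at 0 d and 2.53 to 2.86 at 4 d, and 7, 7, 6 and 6 of 7 were upregulated. Skeletal muscle markers had array means of 3.4 to 7.47 in SN at 0 d and −1.25 to 1.35 at 4 d, with 7 of 7 downregulated at 4 and 7 d, and of 2.91 to 4.69 at 14 d, where none was called. Adipocyte markers (0, 3, 2 and 3 of 4) and perineurial and endothelial markers (2 of 6 on each day) were also downregulated in part. Of the proliferation markers, 3, 5, 5 and 4 of 6 were upregulated. The part of these changes in cell types in the members' values was not tested.

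**Figure D2:**
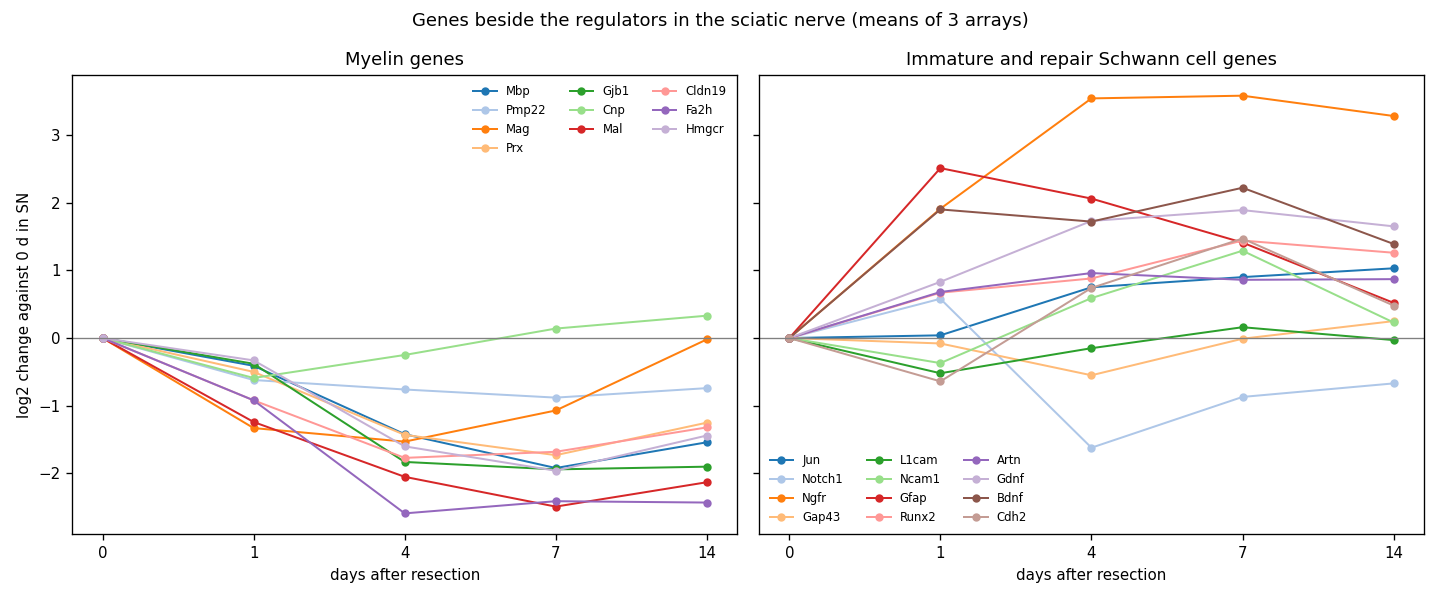
Log2 change against 0 d in SN (y axis) by days after resection (x axis, days evenly spaced) for the 10 myelin genes and the 12 genes of immature and repair Schwann cells. Each line is 1 gene and each point a mean of 3 arrays. The medians of the myelin genes lie between −1.82 and −0.61 and those of the immature and repair genes between 0.63 and 1.35.

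Pou3f1 is the POU factor of promyelinating Schwann cells. Its probe (NM_138838) is at chr5:143984235-143984294 on the plus strand. The SN arrays read −0.51, −0.3 and −0.16 at 0 d, then −0.06, 0.05 and 0.05 at 1 d, 0.32, 0.29 and 0.2 at 4 d, followed by 1.58, 1.52 and 1.53 at 7 d and 1.81, 2.12 and 1.96 at 14 d. No array of a day overlapped with an array of the day before, so the 5 days stand in time order from lowest to highest. The changes against 0 d were 0.34, 0.59, 1.87 and 2.29 (SE 0.1; limma adjusted p = 0.0101, 0.000235, 4.64e-08 and 2.4e-08), the last pair over 2-fold.

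Most of this rise fell between 4 and 7 d, where Pou3f1 gained 1.28 (limma adjusted p = 4.87e-05). It was the 1 member probe called between those days, beside 2.6% of all tested probes. The SN arrays of 4 d lay on slides 4 and 5 and those of 7 d on slide 6. Day and slide therefore cannot be told apart in this step. The steps before and after were 0.26 (adjusted p = 0.0579) and 0.42 (0.0191). Between 1 and 4 d limma called 0 of the 12 member probes (8.53% of all probes), and between 7 and 14 d it called 0 (1.65%). The methods' t-test at an unadjusted p called 0 and 1 there, the 1 being Pax3.

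In the ganglia Pou3f1 was higher at 1 d and lower at 7 and 14 d than at 0 d, under 2-fold each time. There the arrays read −1.3, −1.15 and −1.2 at 0 d, then −0.88, −0.89 and −0.82 at 1 d, −1.13, −1.41 and −1.39 at 4 d, followed by −1.65, −1.62 and −1.58 at 7 d and −1.7, −1.49 and −1.68 at 14 d. All 1 d arrays were above and all 7 and 14 d arrays below the 0 d arrays. The changes were 0.35, −0.1, −0.4 and −0.41 (limma adjusted p = 0.0169, 0.426, 0.00733 and 0.00406).

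Sox2, a stem cell factor that is expressed in immature Schwann cells, was measured by a probe within its coding sequence (NM_001109181, chr2:120969725-120969784, plus strand). The sequence is given because the gene has 1 exon and the probe reports the reading frame itself.
Sox2 probe: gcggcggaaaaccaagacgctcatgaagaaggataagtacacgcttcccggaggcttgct

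In SN the Sox2 arrays read −0.21, −0.14 and 0.15 at 0 d, then 0.47, 0.61 and 0.53 at 1 d, 1.05, 1.16 and 1.19 at 4 d, followed by 1.38, 1.29 and 1.3 at 7 d and 0.88, 1.29 and 1.24 at 14 d. Every array after transection was above every 0 d array, and the 4, 7 and 14 d arrays were all above those of 1 d. The changes were 0.6, 1.2, 1.39 and 1.21 (SE 0.12; limma adjusted p = 0.00076, 3.37e-06, 1.1e-06 and 5.01e-06), over 2-fold from 4 d on. In the ganglia the 15 arrays lay between 0.57 and 0.92, the changes between −0.05 and 0.12, and the lowest adjusted p was 0.309. At 0 d Sox2 was 0.84 lower in the nerve than in the ganglia (−0.84, SE 0.1, adjusted p = 9.5e-08, under 2-fold), and from 4 d the nerve arrays, save the first of 14 d, lay above all ganglion arrays.

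Pax3, a paired box factor of neural crest and early Schwann cells, was dim throughout. Its probes recognise the same transcript (ENSRNOT00000018652) in the paired box (chr9:77574793-77574852, minus strand, the brighter probe) and in the homeobox (chr9:77509396-77509455, minus strand). They are printed because they gave different results.
Pax3 paired box probe: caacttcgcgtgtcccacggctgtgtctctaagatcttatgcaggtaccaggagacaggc
Pax3 homeobox probe: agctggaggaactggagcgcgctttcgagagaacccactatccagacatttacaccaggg

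The homeobox probe was well above background on at most 1 array of a group and was not tested. The paired box probe read −6.33, −6.35 and −6.52 in SN at 0 d and −6.85, −6.66 and −6.57 at 7 d, well above background on none of these 6 arrays, and −4.49, −4.54 and −4.7 at 1 d, then −4.91, −4.88 and −6.61 at 4 d and lastly −5.63, −5.83 and −4.57 at 14 d. In DRG it read −6.63, −6.23 and −6.21 at 0 d, not well above background, then −4.46, −5.02 and −4.95 at 1 d, −6.53, −6.63 and −6.42 at 4 d, followed by −5.81, −5.61 and −5.8 at 7 d and −4.76, −5.98 and −5.68 at 14 d. The 1 d arrays were the highest group in both tissues. In DRG the probe was well above background on all 3 arrays of 4 d at a mean of −6.53, but on none of 0 d at a mean of −6.36.

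Since the 0 d arrays gave only a bound, Pax3 was at least 3.29-fold higher at 1 d in SN (limma adjusted p = 0.00208), at least 1.94-fold higher at 14 d in SN (0.0435) and at least 1.86-fold higher at 1 d in DRG (0.0015). Each bound sets the mean of the brighter group against the lowest signal well above background on each 0 d array, or the probe's own signal where that was higher. It holds only within the processing used here, and some of the settings below gave smaller changes than the bound. The bounds of other genes below were set in the same way and have the same limit. The 14 d call in SN was lost without any 1 of the 3 SN arrays of 0 d or without the third 14 d array (0.67 to 1.3), with the replicate block (adjusted p = 0.0658) and after quantile normalization (0.44). With the mean of both Pax3 probes, the SN value at 1 d was 0.54 and not called, and after normexp background correction it was 0.5. The DRG value at 1 d was 0.87 after quantile normalization, under 2-fold. At 4 d in SN the change was 0.93 (0.0662), and it was called without the third array (1.5).

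The Pax3 values went with the slides. Slide 3, with all SN and the first DRG array of 1 d, read −4.7 to −4.46, and slide 4, with the other DRG arrays of 1 d and the first SN arrays of 4 d, −5.02 to −4.88. Slide 5, with the third SN and all DRG arrays of 4 d, read −6.63 to −6.42. Slide 7, with the second and the third DRG array of 7 d and the first and second SN arrays of 14 d, read −5.83 to −5.61. On slide 6, however, the SN arrays of 7 d (−6.85 to −6.57) and the DRG array of 7 d (−5.81) were apart, and slide 8 spread from −5.98 to −4.57. What part the slide had in the calls against 0 d was not tested.

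The ganglion probe was also called between 1 and 4 d (−1.72, limma adjusted p = 0.00145), the 1 of 12 member probes that was (4.27% of all probes). With the slide as a term this became 0.17 (adjusted p = 0.863), so its direction did not hold. Between 4 and 7 d and between 7 and 14 d limma called 0 member probes in DRG, beside 0.177% and 0.0972% of all probes, and the methods' t-test at an unadjusted p also called 0.

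**Figure D3:**
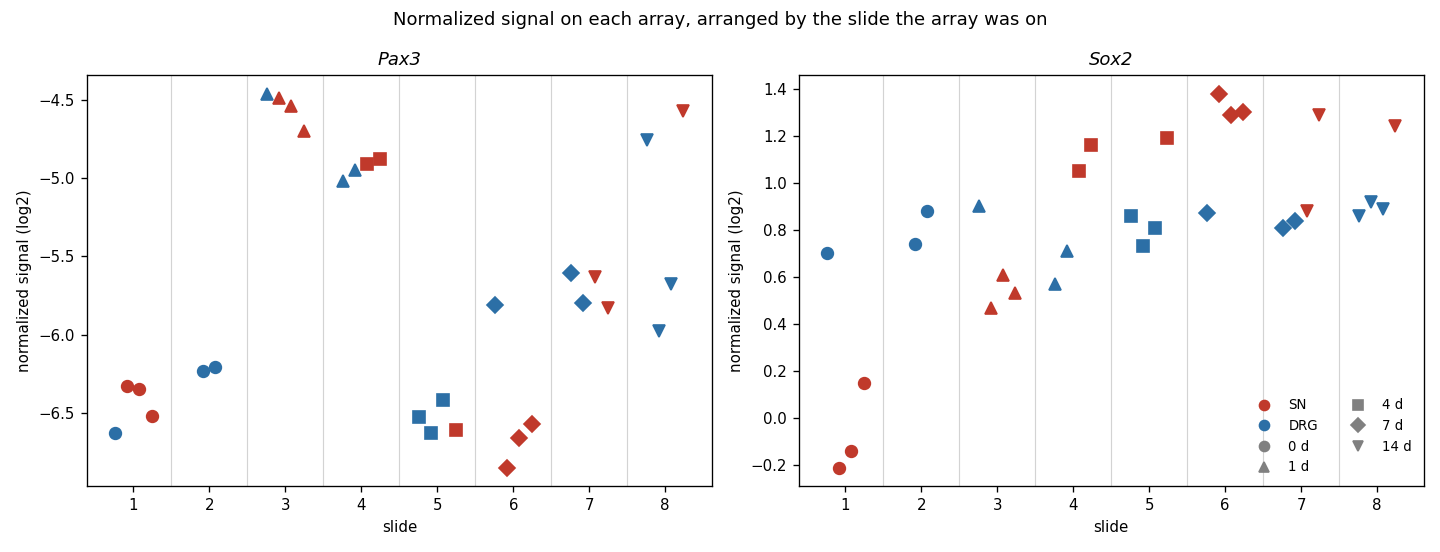
Normalized signal (log2, y axis) of Pax3 and Sox2 on each array, ordered by slide (x axis, 1 to 8), red for SN and blue for DRG. The 4 Pax3 values of slide 5 lie between −6.63 and −6.42 and those of slide 4 between −5.02 and −4.88, while for Sox2 every SN array on slides 5 to 8 lies above the DRG arrays of its slide. The shape of a point gives the day.

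Id2, an inhibitor of basic helix-loop-helix factors that is expressed in non-myelinating Schwann cells, is read by 3 probes on chromosome 6. The brightest read 3.89, 3.91 and 4.26 in SN at 0 d, then 3.7, 3.53 and 3.51 at 1 d, 4.05, 3.79 and 3.8 at 4 d, followed by 4.05, 3.93 and 4.01 at 7 d and 4.07, 4.27 and 4.14 at 14 d. Only the 1 d arrays lay below all of the 0 d arrays. The 1 d change was −0.43 (SE 0.11, limma adjusted p = 0.00502), but it was −0.26 (0.0695) after quantile normalization, and the other Id2 probes gave −0.27 (0.0953) and −0.04 (0.852). At 4, 7 and 14 d it was −0.14, −0.02 and 0.14. In DRG the means of the brightest probe were between 2.83 and 3.1. The other Id2 probes were at −0.37 (0.0311) and −0.26 (0.131) at 14 d relative to 0 d in DRG, with all arrays lower, where the brightest was at 0.04 (0.797), so the probes differed, and none was called.

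Around these factors, 12 genes of immature and repair Schwann cells were described. In SN, 3, 4, 7 and 5 of them were upregulated at 1, 4, 7 and 14 d and 1 was downregulated, at 4 d, with medians of 0.63, 0.82, 1.35 and 0.7. The downregulated gene was the receptor Notch1 (−1.62, limma adjusted p = 0.000118), which was also downregulated in DRG at 4 d (−1.44, 0.0421) and was chosen after its values were seen. Ngfr, the p75 neurotrophin receptor, rose by 1.91, 3.54, 3.58 and 3.28, and the neurotrophic factor Gdnf by 1.73, 1.89 and 1.65 from 4 d on. Gfap, the intermediate filament of non-myelinating glia, rose by 2.51, 2.06 and 1.41 at 1, 4 and 7 d, and Bdnf, a neurotrophin, by 1.9, 1.72, 2.22 and 1.39, although it was well above background on 1 of the 3 arrays at 0 d. In DRG 2, 3, 3 and 6 of the 12 were upregulated and 0, 1, 0 and 1 downregulated, the last being the adhesion molecule Ncam1 (−1.06). Gfap rose there by 1.71 at 1 d and 1.33 at 14 d.

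Among 12 partner regulators, such as Erbb2, Yap1 and Zeb2, limma called at most 1 upregulated on a day in SN and the medians were −0.07, 0, 0.28 and 0.23. That gene was Tfap2a, an AP-2 factor of Schwann cell precursors, well above background on no 0 d array and at least 1.3-fold, 1.51-fold and 1.24-fold higher at 4, 7 and 14 d (limma adjusted p = 6.73e-06, 3.02e-06 and 1.35e-05).

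Olig1 is a basic helix-loop-helix factor best known from oligodendrocytes. Its probe (NM_021770) is at chr11:31246213-31246272 on the plus strand. In SN it read −3.29, −2.89 and −3.18 at 0 d, then −4.19, −4.56 and −4.57 at 1 d, −4.58, −5.13 and −4.53 at 4 d, followed by −4.24, −4.47 and −4.73 at 7 d and −5.27, −4.78 and −3.98 at 14 d. All 12 arrays after transection were below all 0 d arrays, and the later days overlapped among themselves. Olig1 fell by 1.32, 1.63, 1.36 and 1.56 (SE 0.28; limma adjusted p = 0.00141, 0.000307, 0.00113 and 0.000536), 2.5-fold to 3.1-fold. After normexp background correction the 7 d value was −0.98 and under 2-fold.

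In the ganglia Olig1 went the other way. The arrays read −6.19, −7.21 and −7.2 at 0 d, where 1 of 3 was well above background, −6.98, −5.68 and −6.33 at 1 d, where 2 were, −5.74, −5.55 and −5.63 at 4 d, followed by −5.41, −5.62 and −6.41 at 7 d and −4.93, −4.99 and −4.77 at 14 d. The 4 and 14 d arrays were above all 0 d arrays, and those of 7 d overlapped with them. The changes were 0.54, 1.22, 1.05 and 1.97 (SE 0.35; limma adjusted p = 0.313, 0.0196, 0.0448 and 0.00104). The 4 and 7 d calls were each lost in 4 of the 6 fits without 1 array of the groups compared (1.05 to 1.56 and 0.85 to 1.39), among them those without the second or the third 0 d array, and after quantile normalization (adjusted p = 0.131 and 0.209). Without the second or the third array of 4 d, and without the first or second of 7 d, the calls were lost too. The 14 d call held in all of these, and was lost after normexp background correction, where the value was 0.31.

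Shh, a ligand of the hedgehog pathway, has its probe (NM_017221) in coding sequence across an intron, at chr4:2201100-2206014 on the plus strand. It is printed because this member had the largest change in the nerve.
Shh probe: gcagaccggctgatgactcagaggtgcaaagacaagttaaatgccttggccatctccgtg

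In SN the Shh arrays read −5.73, −6.86 and −6.28 at 0 d, where 2 of 3 were well above background, and −3.19, −3.13 and −2.85 at 1 d, −3.84, −3.16 and −3.89 at 4 d, followed by −3.39, −3.68 and −3.5 at 7 d and −4.66, −3.08 and −4.52 at 14 d. The 12 later arrays were all above the 0 d arrays, and at 14 d the second array stood well above the other arrays of its group. The ganglion arrays read −4.04, −4.31 and −3.67 at 0 d and lay between −4.07 and −3.35 after transection, overlapping with 0 d on each day. Ganglion changes were 0.29, 0.4, 0.4 and 0.48 (limma adjusted p = 0.4, 0.18, 0.208 and 0.102). Thus the nerve started below the ganglia, was above all of them at 1 d and overlapped with them from 4 d to 14 d. When the background was instead corrected with normexp and the arrays were quantile normalized, the SN changes at 4, 7 and 14 d were 0.97, 0.95 and 0.65 in place of 2.66, 2.76 and 2.21, and were not called.

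Of the 15 other hedgehog pathway genes, 13 were on the array. In SN 2, 1, 2 and 2 were upregulated at 1, 4, 7 and 14 d and at most 1 was downregulated on a day, with medians of −0.1, −0.14, 0.32 and 0.46. Ptch1, the receptor and a target of the pathway, rose by 2.06, 1.1, 1.45 and 1.12 in SN, and in DRG it was 1.66, 0, 1.18 and 1.39 above 0 d. Other known targets differed from Ptch1 at 1 d in SN: Hhip, which binds and holds back the ligands, fell by 1.09 (limma adjusted p = 1.04e-05) and was the gene downregulated on that day, and the factor Gli1 was at −0.85 (4.69e-05), under 2-fold. Hhip was at −0.57, 0.56 and 0.61 at 4, 7 and 14 d and Gli1 at −0.16, 0.12 and 0.49. Hhip and Gli1 were chosen after their values were seen. The pathway factor Gli3 was well above background on no SN array of 0 d and at least 1.82-fold higher at 1 d (limma adjusted p = 0.00084). Gli3 is also the second gene called at 7 and 14 d, where its bound gave no fold over 1. Dhh, the hedgehog ligand of Schwann cells, was at −0.45, −0.87, −1 and −1.03 relative to 0 d in SN and was downregulated at 14 d, and Disp1, which releases the ligands, was at −0.23, −0.86, −1.31 and −0.82 and was downregulated at 7 d.

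Relatives of the members were also read, 13 of which were tested. In SN 4, 3, 5 and 5 were upregulated and 0, 0, 1 and 1 downregulated. Those downregulated, named after their values were seen, were Egr4 at 7 d, at least 2.44-fold lower (limma adjusted p = 0.0379) with no 7 d array and 2 of 3 arrays of 0 d well above background, and Id1 at 14 d (−1.22, 5.43e-05). Egr3, unlike Egr2, rose by 1.93, 1.12, 1.57 and 1.83. Olig2, unlike Olig1, was at least 5.57-fold, 1.84-fold, 2.53-fold and 2.59-fold higher in SN (limma adjusted p = 0.000581, 0.0266, 0.00812 and 0.00851) and well above background on no 0 d array. In DRG, too, Olig2 was called higher, at least 2.01-fold, 1.29-fold and 1.48-fold at 1, 7 and 14 d (0.00611, 0.0291 and 0.0104), but not at 4 d (0.115). There it was likewise well above background on no 0 d array. Sox11 was at least 10.7-fold, 3.24-fold, 3.07-fold and 2.63-fold higher in SN (1.64e-05, 0.00192, 0.00255 and 0.00692), again with no 0 d array well above background. Pax6 rose by 1.69 at 1 d and 1.18 at 7 d.

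**Figure D4:**
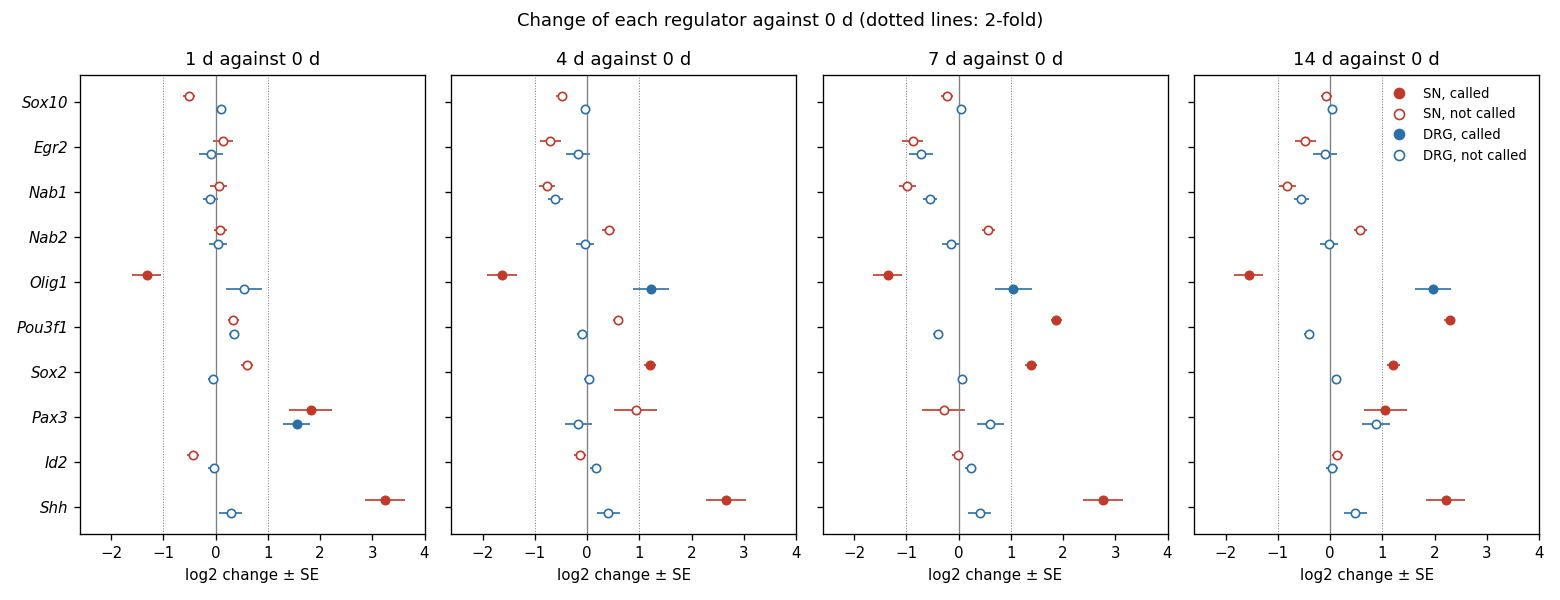
Log2 change against 0 d (x axis) for the brightest probe of each member (y axis) in 1 panel each for 1, 4, 7 and 14 d, red for SN and blue for DRG. Bars are 1 SE, filled points were called and dotted lines mark 2-fold. In SN Olig1 lies between −1.63 and −1.32 and Shh between 2.21 and 3.24.

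At 0 d the nerve and the ganglia differed in most members. Of the 12 tested member probes, 8 were called between them, beside 35.4% of the 33806 probes tested in both tissues, with 7 higher in SN (20% of all probes) and 1 lower (15.5%). The 7 included all 3 Id2 probes (1.15, 1.09 and 1.14). Olig1 differed most (3.74, SE 0.33, limma adjusted p = 4.74e-10), against a ganglion group in which 1 of 3 arrays was well above background. Egr2 was 1.65 higher in SN (4.04e-07), Nab2 1.27 (6.08e-08) and Sox10 1.07 (4.98e-10), and Shh was 4.88-fold lower (1.16e-06). After quantile normalization Sox10 (0.81) and Id2 (0.98) were under 2-fold, and Sox10 was also not called without the second SN array of 0 d (1). After normexp background correction Sox10, Id2, Nab2 and Shh were under 2-fold (0.75, 0.91, 0.78 and −0.74). Pou3f1 was 1.86-fold higher (6.48e-09), under the threshold, while Nab1 (0.11, 0.516) did not pass the test. The 95% interval of Nab1 was −0.2 to 0.42, and Pax3 was well above background on no 0 d array of either tissue, so that its levels were not compared. With the slide as a term, 8 member probes were again called. At 0 d the arrays of the tissues did not overlap for 10 member probes, beside 70.9% of all probes. Over all days, every one of the 15 SN arrays lay above every DRG array for Egr2, Sox10, Pou3f1, Id2 and Nab2, while for Nab1, Sox2, Pax3, Olig1 and Shh the tissues overlapped on some days. The share of all probes separated in this way over all days was not computed.

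The 9 neuron markers had array means of 5.42 to 5.9 in DRG and −2.75 to −1.45 in SN, so that by these both tissues read as labelled. The 5 Schwann cell markers overlapped, at −0.57 to −0.08 in DRG and −0.45 to 0.38 in SN. Of these, 1 was called higher in SN at 0 d. Of the 5 satellite glia markers, Fabp7 and Kcnj10 were well above background on no SN array at 0 d and the other 3 on all. Between the tissues at 0 d, 1 of the 5 was called higher in SN, 2 lower and 2 neither.

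Whether a member changed differently in the nerve and in the ganglia was tested as the SN change minus the DRG change, with an adjusted p under 0.05 counted at any size. At 1, 4, 7 and 14 d 4, 5, 5 and 5 of the 12 member probes passed, beside 35.6%, 45.3%, 38.1% and 32.2% of all probes. The 6 members involved were Sox2, Olig1 and Shh at all 4 days, Pou3f1 from 4 d, Sox10 at 1 and 4 d and Nab2 at 7 and 14 d.

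For Sox2 the difference was 0.65, 1.17, 1.33 and 1.09 (SE 0.14; limma adjusted p = 0.00121, 8.41e-07, 1.61e-07 and 3.44e-06). With the slide as a term it was 0.4, 1.16, 1.22 and 1.12, with an adjusted p of 0.189 at 1 d and of 0.000382, 0.000257 and 0.000709 after that. Pou3f1 did not differ detectably at 1 d (−0.02, 95% interval −0.28 to 0.25) and then differed by 0.69, 2.27 and 2.7 (adjusted p = 0.00015, 1.03e-11 and 1.03e-12), or 0.54, 2.22 and 2.61 with the slide (0.0471, 5e-07 and 1.33e-07). On the arrays of 1 slide alone, 1 to 3 per tissue, the same values were 0.54, 2.23 and 2.62.

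Olig1 differed by −1.86, −2.86, −2.41 and −3.53 (SE 0.46; limma adjusted p = 0.00325, 3.05e-05, 0.000238 and 3.37e-06). With the slide as a term these were −0.53, −1.96, −2.14 and −2.15, and the 1 d value had an adjusted p of 0.441. Shh differed by 2.95, 2.27, 2.37 and 1.73 (SE 0.46; 3.6e-05, 0.000343, 0.000261 and 0.00541), and by 2.9, 1.97, 2.75 and 1.26 with the slide, of which the 14 d value had an adjusted p of 0.209.

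The smaller differences were those of Sox10 and Nab2. Sox10 differed by −0.62 and −0.45 at 1 and 4 d (SE 0.13; limma adjusted p = 0.000936 and 0.00831), with the slide by −0.55 (0.0688) and −0.53 (0.0497), and after quantile normalization the 4 d value was −0.19 and not called. Nab2 differed by 0.71 and 0.59 at 7 and 14 d (0.00948 and 0.033). The 14 d value of Nab2 was lost in 8 of the 12 fits without 1 array (0.52 to 0.69), among them those without the first or second 0 d array of either tissue, and with the slide (0.48, 0.318).

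For Egr2 and Nab1, which were lower in the nerve at 4 and 7 d, and Nab1 also at 14 d, the difference between the tissues did not pass on any day. Egr2 differed by 0.23, −0.53, −0.15 and −0.38 and its 95% interval at 4 d was −1.17 to 0.11, although the 4 d value passed without the first DRG array of 0 d (−0.8). Nab1 differed by 0.17, −0.17, −0.43 and −0.26 and its interval at 7 d was −0.87 to 0.01, and this value passed without the third SN array of 7 d (−0.57). Pax3 and Id2 also had no day with an adjusted p under 0.05, and the lowest were 0.0773 for Pax3 at 4 d, which passed without the third SN array of that day (1.68), and 0.0565 for Id2 at 1 d, which passed without any 1 of 5 arrays (down to −0.53), the third DRG array of 0 or 1 d, the first or second SN array of 0 d and the first SN array of 1 d.

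**Figure D5:**
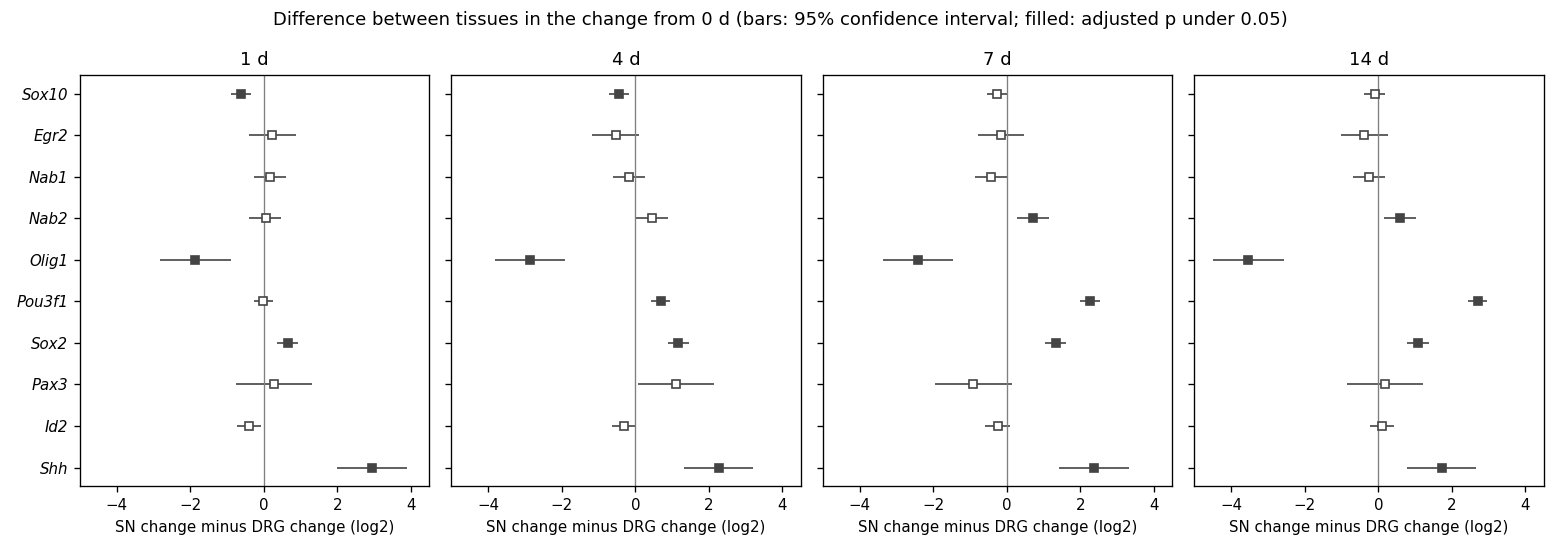
SN change minus DRG change (log2, x axis) of each member's brightest probe (y axis) in 1 panel each for 1, 4, 7 and 14 d. Bars are 95% intervals and filled points had an adjusted p under 0.05. Pou3f1 reaches 2.7 and Olig1 −3.53 at 14 d, while the intervals of Egr2 and Nab1 include 0 on each day.

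Among the members themselves, the SN arrays fell into opposite courses. Sox2 had an r of 0.84 with Nab2 and 0.78 with Pou3f1, and Pou3f1 of 0.81 with Nab2. Sox2 had an r of −0.71 with Egr2, −0.8 with Nab1 and −0.74 with Olig1, and Olig1 of −0.8 with Shh. Sox10 was nearest to Id2 (0.76) and had an r of 0.04 with Egr2. In the ganglia most of these were weaker or of the other sign (Sox2 and Nab2 −0.06, Sox2 and Pou3f1 −0.48, Olig1 and Shh 0.31). All are descriptions over 15 arrays that share days and slides.

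The genes whose level followed a member most closely over the 15 SN arrays were taken from 12119 named genes that were well above background on all of these. For Egr2 they were Pim3 (r = 0.957), Rec114 and Crym, for Nab1 Sbds (0.975), Cltb and Sepsecs, and for Nab2 Zbtb3 (0.931), Cd4 and Rab3il1. Sox10 was followed by Kif16b (0.953), Scn7a and Arb2a, and Id2 by Xpa (0.938), Wdsub1 and Hsd17b13. Pou3f1 was followed by Mycn (0.985), the artemin receptor Gfra3 (0.985) and Rnf215, and Sox2 by Brunol4 (0.979), Apoc4 and Rhbdf2. For Pax3 they were Or10ag52b (0.985), Fgf22 and Etv3, for Olig1 Ufc1 (0.949), Urod and Smpd1, and for Shh Olr1454 (0.958), Agap2 and Runx3. Pax3 itself was well above background on no SN array of 0 or 7 d. Each r was picked as among the highest of 12119, over arrays that share days and slides, so its size is no test.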

How the data were processed

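RNA from SN and DRG was labelled with Cy3 and hybridised to 1-colour Agilent rat arrays, 30 in all. The authors deposited each array's scanner output (Feature Extraction 10.5.1.1), from which the processed signal intensity was used, already background-subtracted per the file headers, and a matrix of log2 values, which is quantile normalized (all 30 columns share 1 distribution). Here log2 of the intensity minus each array's 75th percentile over 41012 non-control probes was used. The deposited matrix served as an alternative. Spots of 1 probe were averaged and no member probe was saturated. A probe was tested where it was well above background on all 3 arrays of a day. Groups came from the sample labels. Each tissue's 15 arrays were fitted with limma 3.58.1 (R 4.3.3), and all 30 together for the comparisons between tissues, with Benjamini-Hochberg adjustment over all tested probes. A gene with several probes was read through the brightest. The authors' methods name a t-test with a 2-fold threshold, which was run as an alternative. Besides the members, up to 4 genes of each list were named, those called on the most SN days with the largest mean change, and for each member the 3 genes of highest r. Some genes of the myelin and Schwann cell marker lists are not reported here, and the lists' counts and medians leave them out. The members, lists and tests were chosen with earlier results of these data known. Probe coordinates are those of the scanner files (rn4), and promoters are from RefSeq (GRCr8). Normexp used an offset of 50. The fits were tested on simulated data with independent noise and no slide effect, so that test does not cover the slides.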

Additional observations from a re-analysis of the deposited data

Results flagged for a closer look

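For 6 members the change against 0 d differed between the nerve and the ganglia by the test of the difference itself (limma, adjusted p under 0.05, 3 arrays per group), and each is given as SN change minus DRG change on the log2 scale. Sox2 differed by 0.65, 1.17, 1.33 and 1.09 at 1, 4, 7 and 14 d, and Shh by 2.95, 2.27, 2.37 and 1.73. Olig1 differed by −1.86, −2.86, −2.41 and −3.53 on the same days. In DRG alone its change at 1 d did not pass (0.54, adjusted p = 0.313), and 1 of the 3 DRG arrays of 0 d was well above background. Pou3f1 differed by 0.69, 2.27 and 2.7 at 4, 7 and 14 d, Sox10 by −0.62 and −0.45 at 1 and 4 d, and Nab2 by 0.71 and 0.59 at 7 and 14 d. With the slide as a term, the values of Sox2, Olig1 and Sox10 at 1 d and of Shh and Nab2 at 14 d no longer passed.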

How the results depend on the processing

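The counts of called member probes against 0 d changed under some settings in both tissues, and those in the ganglia rest on 1 dim probe each. Quantile normalization and the authors' log2 values each gave 2 for SN 7 d against 4 d, 1 for SN 14 d against 7 d, and 0 for DRG at 1, 4 and 7 d. Over all probes, quantile normalization moved the median SN change from 0.11, 0.15, 0.15 and 0.16 to −0.08, 0, 0 and 0.03 and the share upregulated among the calls from 84.5%, 70.1%, 72.7% and 72.4% to 62.9%, 56.6%, 55.8% and 53.7% (in DRG from 97.8%, 92.3%, 95.3% and 96.6% to 86.1%, 75.7%, 82.8% and 73%). Normexp background correction gave 2 member probes for SN 7 d, 3 for SN 14 d, 0 for DRG at 1, 4, 7 and 14 d and for DRG 4 d against 1 d, and 3 for SN against DRG at 0 d, and over all probes it called 2277, 3198, 3190 and 2242 in SN in place of 7763, 7973, 8761 and 6945, with 72%, 54%, 52.5% and 46.8% upregulated. Where a probe had to be well above background in each group compared, 1 member probe was called for SN 1 d, 3 for SN 14 d, 0 for DRG at 1, 4, 7 and 14 d, and 3 for the difference in change at each of 4, 7 and 14 d, with 4467, 5422, 5734 and 4388 probes called in SN. In this setting Pax3, Shh in SN and Olig1 in DRG were left untested against 0 d, as not all their 0 d arrays were well above background. Nor were these genes tested there for the difference in change. DRG 7 d had 0 when dim probes were kept, and also when only the arrays compared were fitted. The methods' t-test at an unadjusted p gave 1 for SN 14 d against 7 d and 0 for DRG 7 d, and with Benjamini-Hochberg adjustment 2 for SN 14 d and 0 for DRG at 4 and 7 d. With the slide as a fixed block over all 30 arrays, 1 was called for SN 4 d against 1 d, 0 for DRG 4 d against 1 d (where Pax3 reversed to 0.17), 1 for the difference in change at 1 d and 3 at 14 d. The cause of the other shifts was not tested.

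Without 1 array at a time the counts lay between 3 and 4 for SN 4 d, 4 and 5 for SN 7 d and SN 14 d, 0 and 1 for DRG 4 d and DRG 7 d, 1 and 2 for DRG 14 d, 0 and 1 for SN 4 d against 1 d, 1 and 2 for SN 7 d against 4 d, 4 and 5 for the difference in change at 1 and 14 d, 5 and 6 at 4 and 7 d, and 7 and 8 for SN against DRG at 0 d, and stayed at 3 for SN 1 d and 1 for DRG 1 d. Of the 546 values of single genes so recomputed, 507 kept their direction and their side of the threshold. The limits are 3 arrays per group, the 0 d arrays shared by the comparisons, and the low signal of Pax3, Olig1 in DRG and Shh in SN at 0 d. Each 0 d array also had fewer probes well above background than any later array of its tissue.

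The replicate numbers did not pair the arrays (mean r of the deviations −0.0375 within a tissue and 0.0232 between tissues, and 5 of 30 arrays correlated best with their own number). With the replicate block DRG 7 d had 0 called (Olig1, adjusted p = 0.0653), and Pax3 in SN at 14 d was at 1.06 with an adjusted p of 0.0658.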
